A study of Rattus norvegicus with 8 samples.

Results

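Skeletal muscle oxidises fatty acids and pyruvate in its mitochondria, and the 43 genes described here encode that route from the uptake of fatty acids to the last steps of the citric acid cycle. They were chosen by name, from textbook membership of the pathway, but with earlier results of these data known. Each was read by its brightest probe set (the group of short probes that reports 1 transcript), by mean intensity over all captures. The array carried a probe set with that single gene name for 41 of the 43, out of 10411 named genes, and Fh and Dlat were skipped. Of the 41, 39 were bright enough to be tested. The study compared the global layer of adult rat extraocular muscle, the layer next to the eyeball, with the orbital layer, next to the orbital wall. Tissue of each layer was cut out with a laser, its RNA was amplified, and 4 captures per layer were hybridised to 1 array each. The labels give no strain, sex, number of animals or treatment, and do not tie captures to animals. The titles of orbital captures 3 and 4 differ only by a suffix, so these could be repeats of 1 capture. Their log2 values differed with an SD of 0.458 over the tested probe sets, against 0.425 to 0.449 in the other orbital pairs. This cannot decide the question, as repeats of 1 capture that were amplified separately could also differ. They were counted as separate, and the main results that change when they are averaged are given. Should several captures come from 1 animal, p-values computed over captures are too small, and in any case these describe the spread among the 8 captures alone.

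Long-chain fatty acids are released from circulating lipoproteins by lipoprotein lipase, taken up, bound and activated to acyl-CoA, and carried into the mitochondrion as carnitine esters. There beta-oxidation shortens them stepwise to acetyl-CoA, and the electrons pass through electron transfer flavoprotein to the respiratory chain. Pyruvate from glycolysis enters as acetyl-CoA through the pyruvate dehydrogenase complex, which kinases switch off and phosphatases switch on, and the citric acid cycle oxidises the acetyl-CoA from both sources. Fibres of the orbital layer are known as rich in mitochondria and capillaries.

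The results turn on few members, and the 250 bases before the RefSeq start site (build GRCr8) are shown for those called or nearest to a call in their role that had an entry in the promoter table, which held 36 of the 43 members. Slc25a20 and Ogdh were higher in the orbital layer, and Ucp3 had a lower value there that did not pass. Capitals mark matches to a set of short motifs on either strand, described after the sequences.
Slc25a20, chr8:118243323-118243572, plus strand: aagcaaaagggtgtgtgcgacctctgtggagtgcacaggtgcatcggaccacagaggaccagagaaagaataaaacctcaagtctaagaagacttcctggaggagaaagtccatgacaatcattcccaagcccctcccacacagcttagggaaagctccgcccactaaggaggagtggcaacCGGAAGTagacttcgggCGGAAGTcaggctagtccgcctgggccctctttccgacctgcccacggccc
Ogdh, chr14:85363781-85364030, plus strand: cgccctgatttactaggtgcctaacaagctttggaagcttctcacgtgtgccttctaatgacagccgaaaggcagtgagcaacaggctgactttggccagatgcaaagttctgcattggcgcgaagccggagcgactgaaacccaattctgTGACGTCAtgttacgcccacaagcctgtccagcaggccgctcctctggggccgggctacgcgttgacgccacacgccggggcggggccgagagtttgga
Ucp3, chr1:164227660-164227909, plus strand: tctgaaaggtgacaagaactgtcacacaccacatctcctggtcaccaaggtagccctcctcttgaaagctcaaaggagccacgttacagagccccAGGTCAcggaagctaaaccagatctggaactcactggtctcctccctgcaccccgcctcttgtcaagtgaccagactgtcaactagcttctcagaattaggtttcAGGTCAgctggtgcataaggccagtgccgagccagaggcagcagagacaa

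The motifs searched in these windows were the nuclear receptor element AGGTCA, its extended form TCAAGGTCA and its direct repeat with a 1-base spacer, DR1 (both contain the element), the palindromic NRF1 site, the ETS core CGGAAGT and the cyclic AMP response element TGACGTCA. The ETS core and the cyclic AMP element were added after the sequences had been read. Slc25a20 held the ETS core at positions -68 to -62 and -51 to -45 from the start site, and 5.22% of all 33469 promoter windows held it. Ogdh held the cyclic AMP element at -99 to -92, against 1.59% of all windows. Ucp3 held the nuclear receptor element at -155 to -150 and -50 to -45, and 14.1% of all windows did. Over the 36 members, 5 held the nuclear receptor element (13.9%), 4 the ETS core (11.1%) and 2 the cyclic AMP element (5.56%). None (0) held its extended form, DR1 or the NRF1 site, against 0.388%, 0.0508% and 0.762% of all windows. The members counted for the ETS core and the cyclic AMP element include Slc25a20 and Ogdh, read before these motifs were added. No excess over all windows can be drawn from the shares of these motifs.

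For most members the difference between the layers was small and did not pass. Slc25a20, the carrier that exchanges acylcarnitine for carnitine across the inner mitochondrial membrane, Lpl, lipoprotein lipase, and Ogdh, the first subunit of the 2-oxoglutarate dehydrogenase complex, rose in the orbital layer, and 0 members fell. These 3 of 39 (7.69%) stand beside 7.41% of all 9520 probe sets tested, so the share called was near the background. Calls are adjusted p-values under 0.05 in limma with Benjamini-Hochberg adjustment over the 9520, and differences are log2 of orbital over global with the standard error (SE), n = 4 captures per layer. For higher calls alone the background was 3.91%, and for lower calls 3.5%. The median difference of the 39 was 0.04, against 0.02 over all probe sets, and it lay between -0.04 (without orbital capture 4) and 0.10 (without global capture 4) on leaving out 1 capture. With orbital captures 3 and 4 averaged it was -0.01. For 36 of the 39 the 95% interval of the difference, not adjusted for the number of genes, lay within a 2-fold change in either direction, as it did for 84.3% of all probe sets, and the other 3 were Slc25a20, Lpl and Pc. At an unadjusted p under 0.05, 5 members were higher and 7 lower, beside 11.7% and 9.92% of all probe sets (21.6% together).

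**Figure D1:**
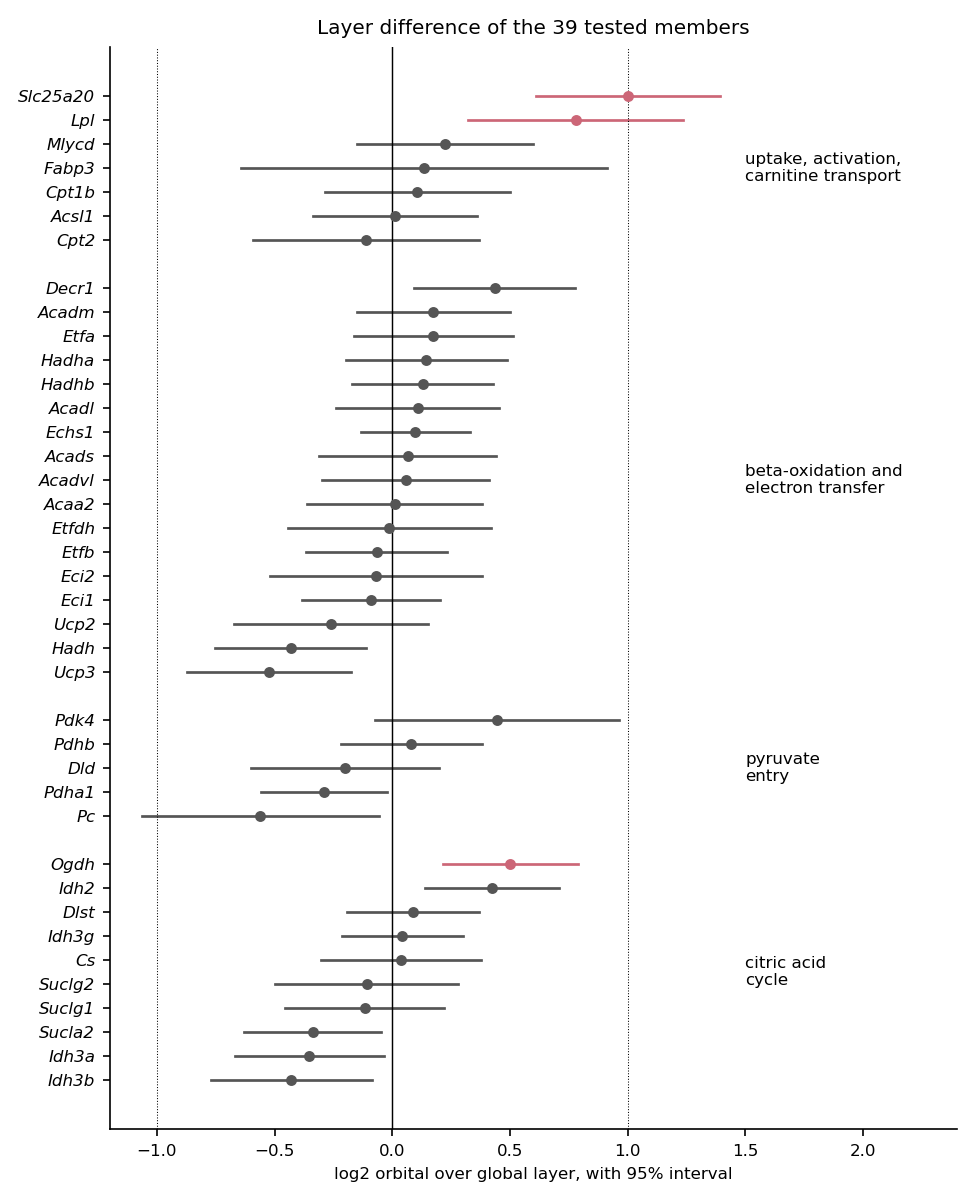
Log2 difference, orbital over global layer, of the 39 tested members by role, with 95% intervals (n = 4 captures per layer); red marks the 3 members that passed at an adjusted p under 0.05, and dotted lines mark a 2-fold difference. Slc25a20, Lpl and Ogdh lie to the right, and most of the other intervals cross 0.

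The arrays were similar in overall brightness, with median probe set intensities between 58.8 and 66.3. All 8 skeletal muscle markers were measured, with a summed intensity of 47865 to 74003 in the global and 42943 to 62793 in the orbital captures. Of the 8, 1 was called (Ryr1, lower, -0.77, limma adjusted p = 0.0229), 6 had differences below 0, and the median was -0.39. In such tissue samples fewer cells of a type and less RNA per cell cannot be told apart. The summed intensity of 8 endothelial markers was 1212 to 1617 in the orbital and 1186 to 1340 in the global captures. Of the 8, 1 was called (Eng, higher), 7 had differences above 0, and the median was 0.16. The filter for testing was at an intensity of 39.4 over all captures. Eng had a mean of 79.5 in the orbital captures and 32.7, under the filter, in the global captures. It was thus tested only through its orbital values. That of 6 adipocyte markers was 281 to 552 and 429 to 985, with 0 of the 3 tested called, and leptin, a defining marker, had a mean of 3.5 and 2.85. The sums of 6 smooth muscle and pericyte markers did not overlap, with 437 to 779 in the orbital and 785 to 912 in the global captures. Myh11, called lower (-1.39, limma adjusted p = 0.00267), made up much of the sum, with 93.6 to 216 in the orbital and 349 to 511 in the global captures. Of the 4 tested, 3 had differences below 0, among them Acta2 (-0.05), and 1 above (Rgs5, 0.26). Summed signals of 3 photoreceptor markers were 1262 to 2383 in the orbital and 257 to 951 in the global captures, and 1 was called (Guca1a, higher). Guca1a made up much of the sum, with 1028 to 1664 in the orbital and 208 to 450 in the global captures. Sag and Gnat1 overlapped between the layers, with differences above 0 that did not pass. Shortened RNA raises the 3′ over 5′ signal ratio of Gapdh, and this ratio was 12.9 in orbital capture 3 and 8.64 in orbital capture 4, and 5.35 to 6.47 in the other captures. The part of these in the results was not tested.

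Among the 8 genes of uptake, activation and carnitine transport, 7 could be tested, of which 2 rose, 0 fell and 5 did not pass (median 0.13). Slc25a20 had an intensity of 633, 407, 389 and 626 in orbital captures 1 to 4 and of 217, 288, 231 and 270 in global captures 1 to 4. Every orbital capture lay above every global capture, and orbital captures 1 and 4 were the high ones. The means were 514 ± 134 (SD, n = 4) and 251 ± 33.2, a log2 difference of 1.001 ± 0.181 (SE, limma adjusted p = 0.00403), or 2-fold. It kept its call on leaving out any 1 of the 8 captures (adjusted p 0.00432 to 0.0172). The titles carry a prefix, R2 or R3, whose meaning is not given, and within R2 and R3 alone Slc25a20 differed by 1.02 and 0.98 (2 against 2 captures, limma adjusted p 0.127 and 0.0976).

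Lpl, the enzyme that frees fatty acids from lipoproteins in the capillaries of muscle, had 2108, 1899, 1426 and 3424 in the orbital and 1235, 1395, 1159 and 1129 in the global captures. The layers did not overlap, but orbital capture 3 lay just above global capture 2, and orbital capture 4 stood far above the rest. The means were 2214 ± 856 (SD, n = 4) and 1229 ± 119 (0.78 ± 0.21, limma adjusted p = 0.0406). The difference was 0.54 without orbital capture 4 (adjusted p = 0.0598), and omitting any of global captures 1, 3 and 4 or orbital captures 1 and 2 also ended the call (adjusted p 0.0601 to 0.0954), as did testing without the filter on dim probe sets (0.075) or without the intensity trend (0.0872). Within R2 and R3 alone the difference was 0.61 and 0.95. Endothelial cells and adipocytes are linked to Lpl in many tissues, and their summed markers are given above.

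**Figure D2:**
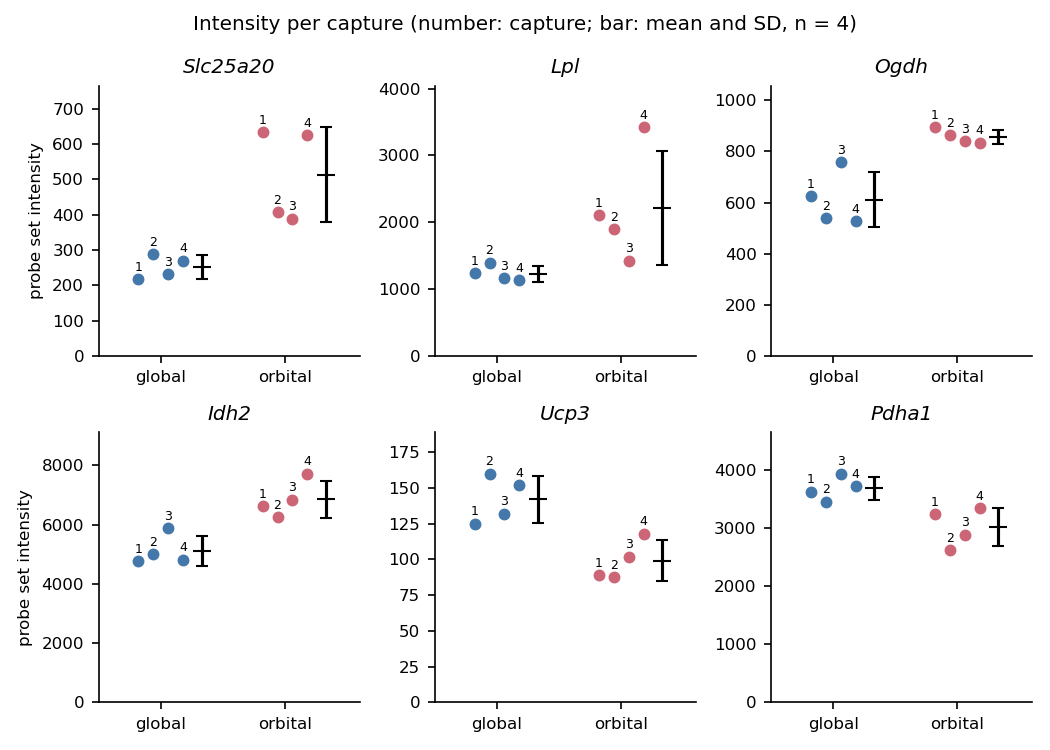
Probe set intensity (linear axis from 0) of 6 members in each capture, numbered 1 to 4 within a layer, with the mean and SD (n = 4) beside the points. Slc25a20, Lpl, Ogdh and Idh2 are higher in every orbital capture than in any global capture, and Ucp3 and Pdha1 lower.

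The other genes of this step differed little. Mlycd, which degrades malonyl-CoA, the inhibitor of the carnitine shuttle, had 325, 260, 335 and 412 in the orbital and 260, 221, 329 and 331 in the global captures (0.22 ± 0.17, limma adjusted p = 0.501). The outer membrane transferase Cpt1b differed by 0.11 and the inner membrane transferase Cpt2 by -0.11, on either side of the carrier that rose. Acsl1, the acyl-CoA synthetase of muscle, had 2221, 2343, 2494 and 3697 in the orbital and 2554, 2449, 2951 and 2517 in the global captures at its bright probe set. The layers overlapped, and the difference was 0.01 there and -0.10 at its second probe set. Fabp3, the fatty acid binding protein of heart and muscle, had 750, 1661, 1078 and 3451 in the orbital and 1126, 1382, 1066 and 1928 in the global captures. It varied more within the orbital layer than between layers (0.13 ± 0.36, 95% interval -0.64 to 0.91). Cd36, a fatty acid transporter of the cell surface, was under the filter on dim probe sets, with 16.2 to 54.5 in the orbital and 29.2 to 32.9 in the global captures, and was not tested. A further probe set annotated to Cd36 together with another gene was not used.

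Of the 18 genes of beta-oxidation and electron transfer, 17 were tested and 0 rose or fell in limma (median 0.06; at an unadjusted p under 0.05, 1 was higher and 2 lower). The lowest adjusted p was that of Ucp3, an uncoupling protein of skeletal muscle mitochondria linked to fatty acid use. It had 89, 87.7, 102 and 118 in the orbital and 125, 160, 132 and 152 in the global captures. The layers did not overlap, and the difference of -0.52 ± 0.16 did not pass (limma adjusted p = 0.0702; 0.0501 to 0.53 over the alternatives). Ucp2, its relative of many tissues, differed by -0.26 with overlap.

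Hadh, the dehydrogenase of short-chain hydroxyacyl-CoA, had 240, 304, 245 and 306 in the orbital and 361, 413, 299 and 408 in the global captures. Orbital captures 2 and 4 lay just above global capture 3, and the difference was -0.43 ± 0.15 (limma adjusted p = 0.103). Decr1, the reductase needed for unsaturated fatty acids, had 1061, 778, 806 and 1069 in the orbital and 650, 802, 540 and 754 in the global captures. Only orbital capture 2 lay under the highest global capture, and the difference was 0.44 ± 0.16 (limma adjusted p = 0.124).

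The chain-length dehydrogenases of the first step lay close to 0. Acadvl for very long chains differed by 0.06, Acadl for long by 0.11, Acadm for medium by 0.18 and Acads for short by 0.07. The 2 subunits of the trifunctional protein, Hadha and Hadhb, differed by 0.15 and 0.13. The hydratase Echs1 had the narrowest interval of the 39 members, with 874 to 985 in the orbital and 838 to 884 in the global captures (0.10, 95% interval -0.13 to 0.33). The thiolase Acaa2 differed by 0.01 and the isomerases Eci1 and Eci2 by -0.09 and -0.07. Of electron transfer flavoprotein and its oxidoreductase, Etfa differed by 0.17, Etfb by -0.07 and Etfdh by -0.01. Acot2, a mitochondrial thioesterase, was near 0 in both layers (0.5 to 15.7) and was not tested.

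Of the 6 genes of pyruvate entry, 5 were tested and 0 rose or fell in limma (median -0.20, and -0.33 without orbital capture 1 to -0.09 without orbital capture 3 on leaving out 1 capture; at an unadjusted p under 0.05, 0 were higher and 2 lower). Pdha1, the catalytic alpha subunit of pyruvate dehydrogenase that the kinases phosphorylate, had 3244, 2622, 2891 and 3343 in the orbital and 3628, 3459, 3940 and 3720 in the global captures. Every orbital capture lay under every global one, with a difference of -0.29 ± 0.12 that did not pass (limma adjusted p = 0.196), and its dimmer probe set differed by -0.17. Its partner Pdhb differed by 0.08, and Dld, the subunit shared with the 2-oxoglutarate complex, by -0.20.

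Pdk4, a pyruvate dehydrogenase kinase known to rise with fatty acid use, was dim, with 47, 53.2, 53.1 and 48.6 in the orbital and 43.9, 35.6, 27.5 and 42.3 in the global captures. The layers did not overlap, and the difference was 0.45 ± 0.24 (limma adjusted p = 0.313). Pc, pyruvate carboxylase, which refills the cycle with oxaloacetate, was also dim, with 52.3, 35.6, 43.8 and 39.7 in the orbital and 53, 52.2, 74.7 and 76.5 in the global captures. Orbital capture 1 met the lower global captures, and the difference was -0.56 ± 0.23 (limma adjusted p = 0.182, 95% interval -1.06 to -0.06). Over all captures both lay little above the filter, which was at an intensity of 39.4. The mean of Pdk4 was 50.5 in the orbital captures and 37.3, under the filter, in the global captures. Pdk4 was thus tested only through its orbital values.

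Of the 11 genes of the citric acid cycle, 10 were tested, of which 1 rose and 0 fell (median -0.03, and -0.10 without orbital capture 1 to 0.05 without orbital capture 2 on leaving out 1 capture; at an unadjusted p under 0.05, 2 were higher and 3 lower). Ogdh had 895, 863, 841 and 834 in the orbital and 624, 539, 757 and 528 in the global captures. The orbital values were nearly alike and all above the global ones, where capture 3 was highest. The means were 858 ± 27.3 (SD, n = 4) and 612 ± 106 (0.50 ± 0.13, limma adjusted p = 0.0361). The call remained without global capture 3 (adjusted p = 0.0139) and was lost on leaving out any other capture (0.0635 to 0.0913). It was also lost with orbital captures 1 and 2 alone (0.151), a comparison that called 3.81% of all probe sets and, of the members, Slc25a20 and Lpl. The call was lost without the intensity trend (0.083) and with orbital captures 3 and 4 averaged (0.0603), and within R2 and R3 alone the difference was 0.60 and 0.41. The other subunits of that complex, Dlst and Dld, differed by 0.09 and -0.20.

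The isocitrate dehydrogenases had differences of both signs. Idh2, which is mitochondrial and reduces NADP, had 6632, 6255, 6845 and 7723 in the orbital and 4777, 5003, 5873 and 4816 in the global captures. The layers did not overlap, with a difference of 0.42 ± 0.13 (limma adjusted p = 0.072). It passed with quantile (0.00498) and cyclic loess normalization (0.00936) and with the title prefix as a replicate block (0.0438), and its difference was 0.34 to 0.51 over all alternatives. Idh3b, a subunit of the enzyme that reduces NAD in the cycle itself, had 2497, 1907, 1891 and 2656 in the orbital and 2832, 2526, 3677 and 2980 in the global captures. Orbital capture 4 lay above global capture 2, and the difference was -0.43 ± 0.16 (limma adjusted p = 0.128). The catalytic subunit Idh3a differed by -0.35 (limma adjusted p = 0.181) and the third subunit Idh3g by 0.04.

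Citrate synthase, Cs, the usual marker of mitochondrial content, had 1598 to 2191 in the orbital and 1494 to 2276 in the global captures. Its difference was 0.04 ± 0.16, with a 95% interval of -0.30 to 0.38, and its other probe sets, both dim, differed by 0.24 and 0.004. Of the succinyl-CoA ligase subunits, the ADP-forming Sucla2 differed by -0.34 (limma adjusted p = 0.166), the GDP-forming Suclg2 by -0.11 and the shared Suclg1 by -0.12.

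Layers that did not overlap were found for 7 of 39 members (17.9%), beside 14.1% of all probe sets. The higher ones were Slc25a20, Lpl, Ogdh, Idh2 and Pdk4, 5 members against 7.31% of all probe sets, and the lower ones Ucp3 and Pdha1, 2 members against 6.75%. Of these, Pdk4 passed the filter on dim probe sets only through its orbital values. An interaction of layer and title prefix was called for 0 of 9520 probe sets in limma, and at an unadjusted p under 0.05 for 290 (3.05%).

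Many of the fatty acid genes were highest in the same orbital capture. Orbital capture 4 was the highest orbital capture for 24 of the 39 members (61.5%), as against 22.9% of all probe sets tested. These were 6 of 7 genes of uptake, 12 of 17 of beta-oxidation, 2 of 5 of pyruvate entry and 4 of 10 of the cycle. This was not particular to these genes. The summed intensity of the 8 skeletal muscle markers was also highest in orbital capture 4, at 62793, against 45427, 42943 and 49844 in orbital captures 1 to 3. Orbital capture 1 was the highest for 11 members (28.2%, against 22.1% of all probe sets), among them 5 of 10 genes of the cycle and 2 of 5 of pyruvate entry, and Ogdh was lowest in orbital capture 4. Global capture 4 was the highest global capture for 16 of 39 (41%), against 31.1% of all probe sets. Orbital capture 2 was the highest orbital capture for 3 (7.69%), against 26.3% of all probe sets. The median deviation of the beta-oxidation genes from the mean of the global captures was 0.32 in orbital capture 4, and -0.09, -0.15 and -0.01 in orbital captures 1, 2 and 3. For the uptake genes it was 0.55 in orbital capture 4 and 0.02, -0.11 and 0.22 in the others. Without orbital capture 4 the median layer difference of the uptake genes was -0.01, and with orbital captures 3 and 4 averaged it was 0.01. Leaving out any 1 of the other 7 captures kept this median above 0. That of the beta-oxidation genes was -0.04 without orbital capture 4, and also below 0 without global capture 1 (-0.01) or 2 (-0.02), and with orbital captures 3 and 4 averaged (-0.01). The uptake median was -0.12 with orbital captures 1 and 2 alone.

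**Figure D3:**
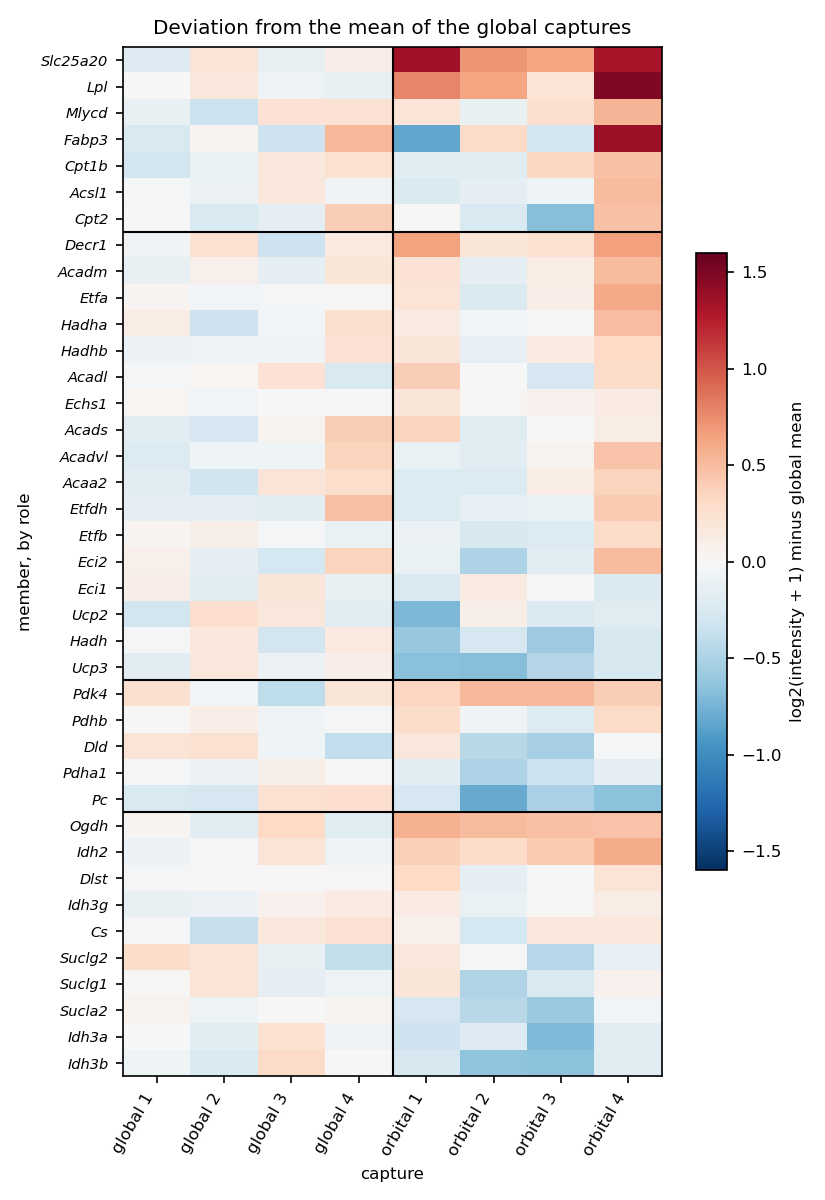
Log2(intensity + 1) of the 39 tested members in each of the 8 captures, minus the mean of the 4 global captures, as colour (red higher, blue lower), with members in rows by role (from the top: uptake, beta-oxidation, pyruvate entry, citric acid cycle). Orbital capture 4 is red over most fatty acid genes, while Slc25a20, Lpl, Ogdh and Idh2 are red in all 4 orbital captures.

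Other genes of the pathway, from a list of 44 of which 33 were tested, gave 2 higher and 3 lower calls (15.2%, beside 7.41% of all probe sets), with a median of 0.10. The list was drawn up with earlier results of these data known, so no conclusion is drawn from this share. Regulators of pyruvate dehydrogenase held 3 of the 5. Pdk1, a kinase that inactivates the complex, had 456, 275, 307 and 386 in the orbital and 184, 193, 193 and 170 in the global captures. All orbital captures lay above the global ones (0.92 ± 0.16, limma adjusted p = 0.00358), and a second probe set also rose (0.77, adjusted p = 0.0391). Pdp1, the phosphatase catalytic subunit that reactivates the complex and is best known from muscle, had 123, 139, 154 and 174 in the orbital and 297, 276, 294 and 340 in the global captures. It fell in all orbital captures (-1.03 ± 0.15, limma adjusted p = 0.000825). Pdp2, the other catalytic subunit, had 152, 103, 219 and 87.8 in the orbital and 72.6, 55.8, 54.4 and 61.4 in the global captures (1.11 ± 0.26, adjusted p = 0.0185). Omitting orbital capture 1, orbital capture 3 or global capture 3 ended that call (0.0512 to 0.0601). The kinases Pdk2 and Pdk3 differed by -0.57 (adjusted p = 0.126) and 0.43 (adjusted p = 0.252).

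**Figure D4:**
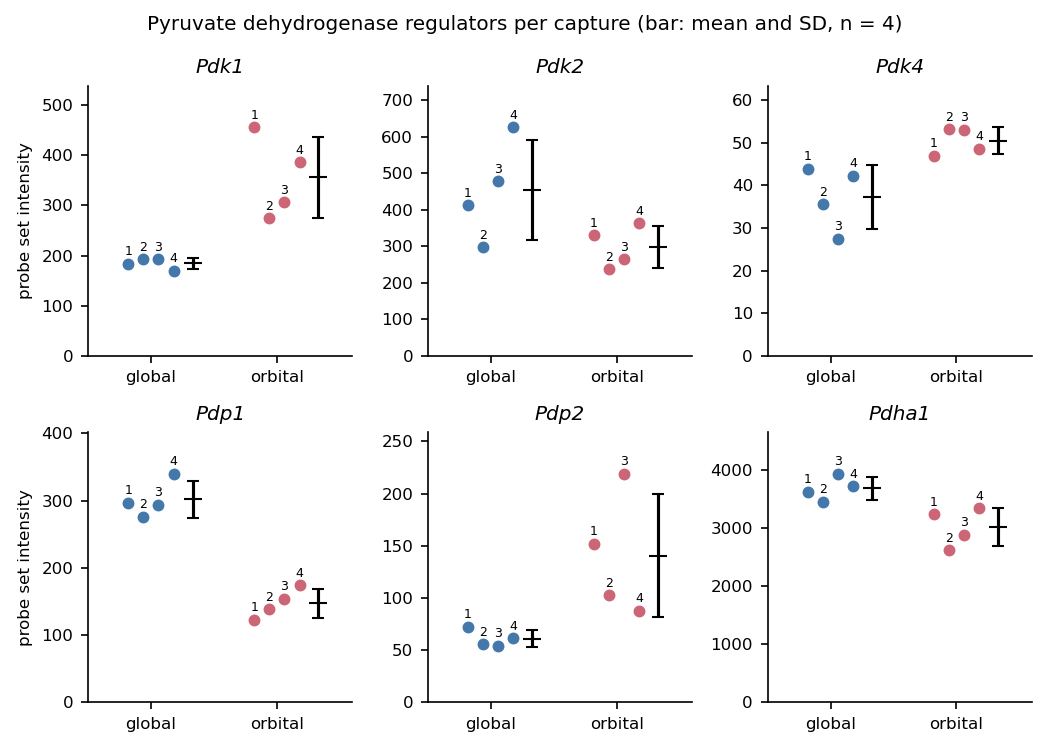
Probe set intensity (linear axis from 0) in each capture, numbered 1 to 4 within a layer, of kinases (Pdk1, Pdk2, Pdk4) and phosphatases (Pdp1, Pdp2) of pyruvate dehydrogenase and of their substrate Pdha1, with the mean and SD (n = 4). Pdk1 and Pdp2 are higher and Pdp1 lower in every orbital capture than in any global capture.

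The other calls were Angptl4 and Plin2. Angptl4, a secreted inhibitor of lipoprotein lipase, had 32.2, 42.1, 75.9 and 57 in the orbital and 92, 124, 95.8 and 168 in the global captures. It was lower in every orbital capture (-1.22 ± 0.28, limma adjusted p = 0.0158), opposite in sign to Lpl. Plin2, a coat protein of lipid droplets, differed by -0.47 (adjusted p = 0.0401), but another of its probe sets had a difference of 0.27 that did not pass. Omission of any single capture except orbital capture 4 ended the Plin2 call (adjusted p 0.0593 to 0.11). Of the succinate dehydrogenase subunits, Sdha differed by -0.03, Sdhb by -0.08, Sdhc by 0.31 and Sdhd by -0.18, and none (0 of 4) passed.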

How the data were processed

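Per the labels, each laser capture gave RNA that was amplified (T7-based kit) and then run on 1 Affymetrix rat array. The authors deposited 1 linear intensity per probe set and array, and the summary software is not given in the sources used here. Trimmed means (2% at each end) differed between arrays by at most 0.00389%, so the deposited intensities were used without further normalization. A scaling of this kind sets each level against all other transcripts on that array, and amplification can favour some transcripts.

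Captures were grouped by the labelled source and numbered in accession order. The 57 control probe sets among 15923 were dropped, and the 9520 at or above the 40th percentile of mean log2(intensity + 1), an intensity of 39.4, were fitted with lmFit and eBayes with an intensity trend (limma 3.58.1, R 4.3.3), with layer as the only term. The procedure was tested on simulated data. The platform annotation, which can be old, gave a single symbol to 12783 probe sets, and those with several symbols were not named. Role medians have no test. Motifs were searched in RefSeq upstream sequence.

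The members, roles, lists and naming rule were chosen with earlier results of these data known. Capture values are given for called members, the 3 members of each role with the smallest p, and members whose probe sets differ in sign or call. Those of Fabp3 lie outside this rule and were chosen after they were seen. From the further pathway genes those called are named, and Pdk2, Pdk3 and the succinate dehydrogenase subunits were named after their values were seen. The alternatives tried were cyclic loess and quantile normalization, pseudocounts 16 and 64, no filter or the 60th percentile, eBayes without trend or robust, the title prefix as a block or alone, array weights, averages over orbital captures 3 and 4 or over a gene's probe sets, and each capture left out. The fit with orbital captures 1 and 2 alone was added after seeing the data.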

Additional observations from a re-analysis of the deposited data

Results flagged for a closer look

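In 3 of 78 groups of 4 captures (39 members in each layer) 1 capture lay far from the others of its layer by Dixon's criterion, where chance gives about 1 in 20 groups. Hadhb, the beta subunit of the trifunctional protein, was at 4234 in global capture 4 and at 3368 to 3451 in the other global captures. Etfdh, the oxidoreductase that passes electrons from flavoprotein to ubiquinone, was at 154 in global capture 4 against 98.2 to 100 in the others, and at 148 in orbital capture 4 against 95.4 to 103.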

How the results depend on the processing

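Over 23 alternatives, 24 of the 39 tested members kept the sign of their difference and 15 turned it under at least 1, all of them with a difference of at most 0.17 in size. Slc25a20 was called under 21 alternatives, all but the fits within 1 prefix, Lpl under 13, Ogdh under 11 and Idh2 under 3, and no other member under any. Members called higher were 3 and lower 0. Higher calls were 1 without the intensity trend, 0 within R2 alone and 0 within R3 alone, and 1 to 2 on leaving out 1 capture. Probe sets called were 705, and 106 within R2, 166 within R3, 363 with orbital captures 1 and 2 alone and 468 (without global capture 3) to 726 on leaving out 1 capture. The uptake median was -0.12 with orbital captures 1 and 2 alone. Acsl1 turned its sign to -0.057 with orbital captures 3 and 4 averaged, -0.13 within R2, -0.19 with orbital captures 1 and 2 alone and -0.042 as the mean of its probe sets, and lay between -0.15 and 0.093 on leaving out 1 capture. The cause was not tested. The prefix as a replicate block gave 745 probe sets and changed no member's call other than that of Idh2. Captures of different layers with the same prefix deviated from their layer means with correlations of -0.00545 to 0.111, and those with different prefixes with -0.134 to 0.0448. Deviations within a layer sum to 0, so these values cannot decide whether the prefix pairs captures. The prefix was left out of the main fit because the labels do not tie captures to animals. The small number of arrays limits the precision, and for Pdk4, Pc and Cd36 so does a signal near the dim end.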

Other observations

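Beyond the members, Ppargc1a, a coactivator of mitochondrial genes, had 75.6, 114, 36.8 and 121 in the orbital and 64, 36.9, 36.8 and 33.2 in the global captures, a log2 difference of 0.92 ± 0.35 that did not pass (limma adjusted p = 0.145). Orbital capture 3 was at the level of the global captures, and the other orbital captures were above them. The cytosolic enzymes Mdh1 and Idh1, a malate and an isocitrate dehydrogenase, were higher in every orbital than in any global capture, by 0.42 (adjusted p = 0.0957) and 0.36 (adjusted p = 0.0906), and neither passed. These 3 genes were named after their values were seen.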
